A study of Homo sapiens with 8 samples.

Results

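H3K4me3 ChIP sequencing of HCT8 cells after co-culture with *V. cholerae* MVs was set against H3K4me3 ChIP sequencing of mock-treated HCT8 cells. The 2 peak lists of this comparison were taken by their labels, and they held 29347 peaks with *V. cholerae* MVs and 23603 peaks with mock, 52950 of the 324674 peaks in the 6 deposited lists of the series. HCT8 is an established cell line from a human ileocecal colorectal adenocarcinoma. The treated cells were kept for 5 h with MVs of *V. cholerae* strain C6706, and the mock-treated cells received the buffer without MVs. MVs of *E. coli* strain MC1061 were another treatment of the series, used here for reference. Both groups were otherwise the same cell line, and both were precipitated with the same lot of the same Abcam antibody. Each treatment had 1 library, so no difference below has a replicate check and none was tested. In bulk chromatin, fewer cells that carry the mark and less mark per cell cannot be told apart.

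H3K4me3, the trimethylated lysine 4 of histone H3, lies on the nucleosomes around the start sites of active and poised genes. It is placed by the SET1 and MLL methyltransferase complexes, which are drawn to unmethylated CpG islands, so the mark is common at promoters rich in CG dinucleotides. MVs are spheres of bacterial outer membrane that carry lipopolysaccharide, proteins and nucleic acids into or onto host cells.

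Most protein-coding promoters carried more H3K4me3 tags with *V. cholerae* MVs than with mock, per 10000000 tags of each library. The excess was unequal among genes. It was largest at GC-rich promoters, such as those of *EPHB3*, *SP5* and *ASCL2* among the Wnt and crypt genes and *PDLIM7* and *ACTB* among the actin genes. It was small or absent at promoters of mitotic genes and ribosomal proteins. Shared peaks within introns and between genes, which were mostly weak, had fewer tags with *V. cholerae* MVs than with mock in the median. Called peaks were also wider with *V. cholerae* MVs, the deeper library, by a similar distance on both sides of the start site.

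The libraries differed in depth and in the share of tags that lay in peaks. The *V. cholerae* MV library held 13011839 tags and the mock library 3463875 tags, a ratio of 3.76. Of these tags, 56.1% lay in peaks with *V. cholerae* MVs (exact 95% binomial interval 56.1% to 56.1% after rounding) and 38.6% with mock (38.5% to 38.6%). The *E. coli* MV library of the series had 53.9% of 10528314 tags in peaks. The share of tags in peaks thus differed along with every level given below, and its part in the results was not tested. A second scale, on which each library is divided by its tags in peaks, shifts each log2 ratio of *V. cholerae* MVs over mock down by 0.54. The intervals given here for tags cover counting error only, and they may be too narrow because copies made by PCR are not independent molecules. An interval on a share of regions treats the regions as independent draws. All 10 markers of colon epithelium that were examined had a peak in both lists, among them *EPCAM*, *KRT8*, *CDH1* and *CDX2*. Of 10 blood cell markers, 1 had a peak in both lists (*CD14*) and 9 had none in either. Of 10 annotated markers of fibroblasts, endothelium, muscle, neurons and liver, 3 had a peak with *V. cholerae* MVs, at 7.69 to 16.9 normalized tags, and none had a peak with mock.

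The reference sequence before 6 start sites gives examples of CG content at both ends of the comparison. Each is the 250 bases upstream of the start site on GRCh37 (hg19), written 5′ to 3′ on the strand of the gene, with every CG dinucleotide in capitals. *TNFSF13* (chr17:7461359-7461608, plus strand) and *DMPK* (chr19:46274624-46274873, minus strand) were among the genes with the highest ratios of *V. cholerae* MVs over mock. *TNRC6B* (chr22:40573679-40573928, plus strand) and *DNAJB14* (chr4:100867776-100868025, minus strand) were among those with the lowest. *C1orf159* (chr1:1051462-1051711, minus strand) and *RND3* (chr2:151331619-151331868, minus strand) belong to the promoter regions with the highest and the lowest ratio among strong regions with 1 peak in each list. The start sites used for *DMPK*, *TNRC6B* and *RND3* are internal to the annotated gene, downstream of its first start site. Their sequences need not be those of the main promoter of the gene. At the *DMPK* start site shown, the peaks had 741.6 normalized tags with *V. cholerae* MVs, and mock had no peak. At that of *TNRC6B*, mock had 739.1 and *V. cholerae* MVs had no peak. The ratios of these 2 genes thus include peaks at other start sites.
TNFSF13: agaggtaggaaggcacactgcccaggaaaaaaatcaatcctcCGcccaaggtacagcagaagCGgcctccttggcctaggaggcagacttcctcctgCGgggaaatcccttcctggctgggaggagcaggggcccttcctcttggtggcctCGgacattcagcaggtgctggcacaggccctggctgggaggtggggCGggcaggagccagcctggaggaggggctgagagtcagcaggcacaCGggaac
DMPK: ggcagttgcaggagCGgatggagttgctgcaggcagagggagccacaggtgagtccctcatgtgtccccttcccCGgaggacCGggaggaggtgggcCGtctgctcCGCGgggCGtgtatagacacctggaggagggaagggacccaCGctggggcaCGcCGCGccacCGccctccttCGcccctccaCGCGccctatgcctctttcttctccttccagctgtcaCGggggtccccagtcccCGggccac
C1orf159: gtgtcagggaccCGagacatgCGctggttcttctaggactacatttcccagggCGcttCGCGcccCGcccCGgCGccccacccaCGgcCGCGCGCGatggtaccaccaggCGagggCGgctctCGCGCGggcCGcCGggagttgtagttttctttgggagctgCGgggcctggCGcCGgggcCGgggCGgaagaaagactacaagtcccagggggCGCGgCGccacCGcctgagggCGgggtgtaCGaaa
TNRC6B: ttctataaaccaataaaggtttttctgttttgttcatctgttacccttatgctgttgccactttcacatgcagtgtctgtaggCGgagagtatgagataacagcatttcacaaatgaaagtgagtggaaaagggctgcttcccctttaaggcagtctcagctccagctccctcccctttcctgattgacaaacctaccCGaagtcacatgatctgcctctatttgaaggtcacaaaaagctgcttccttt
DNAJB14: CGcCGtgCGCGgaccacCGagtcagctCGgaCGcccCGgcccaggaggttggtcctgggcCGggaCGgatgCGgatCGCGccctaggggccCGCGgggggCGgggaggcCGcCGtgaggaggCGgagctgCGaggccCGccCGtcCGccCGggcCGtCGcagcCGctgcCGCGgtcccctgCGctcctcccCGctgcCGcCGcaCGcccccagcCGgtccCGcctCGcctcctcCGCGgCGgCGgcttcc
RND3: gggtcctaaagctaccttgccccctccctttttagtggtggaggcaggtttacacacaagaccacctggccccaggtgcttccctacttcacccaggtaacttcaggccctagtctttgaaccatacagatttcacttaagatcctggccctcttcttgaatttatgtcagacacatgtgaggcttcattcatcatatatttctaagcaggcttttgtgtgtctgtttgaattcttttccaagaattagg
These sequences held 6, 17, 31, 2, 41 and 0 CG dinucleotides in the order printed. The median over all 20090 protein-coding genes, with or without a peak, was 14. The GC content was 71.2% before the *C1orf159* start site and 45.6% before that of *RND3*. The *TNFSF13* and *DNAJB14* sequences went against this order. The ratios of *TNFSF13*, *DMPK* and *DNAJB14* all moved when whole regions were taken, to 1.08, 1.27 and 0.39 on the log2 scale, as described below. Over whole regions, the median was 22 CG dinucleotides for the 3290 genes at least 2-fold higher with *V. cholerae* MVs and 15 for the 1076 genes that were lower.

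The peaks of both lists were joined into 33679 regions wherever they shared at least 1 bp. Of these, 18351 held peaks of both lists, 10882 a peak with *V. cholerae* MVs only and 4446 a peak with mock only. The shared regions took 62.9% of the *V. cholerae* MV peaks and 81.2% of the mock peaks, and they held 96.1% of all peak tags with *V. cholerae* MVs and 97.1% with mock. The regions of 1 list were thus weak. Their median normalized tag count, the tags per 10000000 tags of the library, was 13.1 with *V. cholerae* MVs and 20.2 with mock, against 234.4 and 124.1 at the shared regions. The median width was 626 bp with *V. cholerae* MVs only and 500 bp with mock only, the smallest size a peak could have. Regions with at least 100 normalized tags numbered 104 with *V. cholerae* MVs only and 27 with mock only.

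The depth of the mock library limits what its list could hold. At the depth of mock, 41.4% of the regions with *V. cholerae* MVs only would have had fewer than 4 tags, the weakest peak in the mock list (exact 95% binomial interval 40.5% to 42.4%). Below 6 tags, the threshold in the header of the mock list, 65.0% of these regions would have fallen. That threshold was not a strict floor of the list, since 574 of the 4446 regions with mock only (12.9%) were below it. When both lists were held to that threshold, on the scale of normalized tags, there were 3996 regions with *V. cholerae* MVs only and 5639 with mock only, where a shared region that lost 1 of its peaks counted as a region of the other list. The order of the 2 counts was therefore the reverse of that over all peaks. An absent peak does not mean that no tag was there, so no ratio was formed for these regions.

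The regions of 1 list also differed in place and base composition. With *V. cholerae* MVs only, 16.7% lay within 1000 bp of a protein-coding start site, 43.5% in introns and 24.4% between genes. With mock only, these shares were 6.57%, 56.1% and 24.7%. The median GC content was 50.1% with *V. cholerae* MVs only and 39.9% with mock only, against 51.3% at shared regions. Density of CG dinucleotides showed the same order, with medians of 1.40 per 100 bp with *V. cholerae* MVs only, 0.599 with mock only and 3.62 at shared regions. Of the regions with *V. cholerae* MVs only, 54.8% overlapped a peak of the *E. coli* MV list, and of those with mock only 39.9% did, against 96.3% of shared regions.

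Of the 8 strongest regions with *V. cholerae* MVs only, all but 1 in an intron of *BCOR*, a transcriptional corepressor, lay at promoters. The strongest was the start site shared by *PLAG1*, a zinc finger transcription factor, and *CHCHD7*, on chromosome 8 (chr8:57122557-57125821), with 625.6 normalized tags at 21.9-fold over input. The promoter of *SULF2*, an extracellular enzyme that removes sulphate groups from heparan sulphate, followed with 286.7 normalized tags (chr20:46412689-46415582). *ALKBH7*, a mitochondrial dioxygenase, had 235.9 normalized tags (chr19:6372170-6374458), and *NINJ2*, a membrane adhesion protein, 219.8 (chr12:751503-753478). *SOCS3*, which restrains cytokine signalling through JAK and STAT proteins, had 212.9 normalized tags at 16.9-fold over input (chr17:76355127-76357048). *RXRA*, the shared partner of many nuclear receptors, had 208.3 in an internal region 6308 bp wide (chr9:137269193-137275501). A region at *CDC25B* and *CENPB* had 204.4 (chr20:3765733-3768479), and the intronic region of *BCOR* had 245.9 (chrX:40011723-40015437). All 8 of these regions had a peak in the *E. coli* MV list too, at 128.2 to 504.4 normalized tags, and their GC content was 54.8% to 73.2%.

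The strongest regions with mock only were of another base composition, at 39.8% to 44.1% GC. An internal promoter of *TNRC6B*, a protein of the microRNA silencing complex, had 739.1 normalized tags with mock at 6.4-fold over input and no peak with *V. cholerae* MVs (chr22:40573268-40575900). A promoter region of *GALK2*, a sugar kinase, had 617.8 at 4.7-fold over input (chr15:49461705-49463987), close to the minimum of 4-fold that the peak caller asked for. A region within *MAML3*, a coactivator of Notch, had 306.0 at 4.39-fold (chr4:140969255-140971410). The promoter of *PSD3* stood apart, with 259.8 normalized tags at 25.2-fold over input (chr8:18869245-18870719). A region at *PERP*, a desmosome-associated target of p53, had 170.3 (chr6:138408042-138410956), and 1 at *ACSL5*, which activates fatty acids, had 150.1 (chr10:114152923-114155766). The *E. coli* MV list had a peak at 6 of the 8 strongest, and at *TNRC6B* it had 625.9 normalized tags at 5.16-fold over input. At *PSD3* the *E. coli* MV peak had 515.8 normalized tags at 4.14-fold over input.

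At shared regions, the median ratio differed in direction between promoters and other places, which also differed in level. The median log2 ratio of *V. cholerae* MVs over mock was 0.44 over all 18351 shared regions, and 71.2% were higher with *V. cholerae* MVs. At the 11517 promoters of protein-coding genes it was 0.64, and 88.9% were higher, with medians of 418.8 normalized tags with *V. cholerae* MVs and 251.2 with mock. At 1102 promoters of other genes it was 0.42, with medians of 89.1 and 63.5 normalized tags. In exons the medians were 37.7 and 37.5, and the median log2 ratio was -0.03. In introns the level was lower with *V. cholerae* MVs, with medians of 26.9 and 34.6 normalized tags and a median log2 ratio of -0.47 over 3259 regions. Between genes the medians were 30.7 and 31.8, with a median log2 ratio of -0.23. Among all shared regions, the lowest quartile by mean level had a median of -0.42, and 13.1% of it were protein-coding promoters. The higher quartiles had 0.62, 0.79 and 0.43. The weakest peak had 11.5 normalized tags in the mock list and 6.92 in the *V. cholerae* MV list. The parts of place, level and this floor were not separated. Scaled to the tags in peaks, the median over all shared regions was -0.10, and that of protein-coding promoters was 0.10, so the sign of the first rests on the scale while that of the level at promoters was the same on both.

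**Figure D1:**
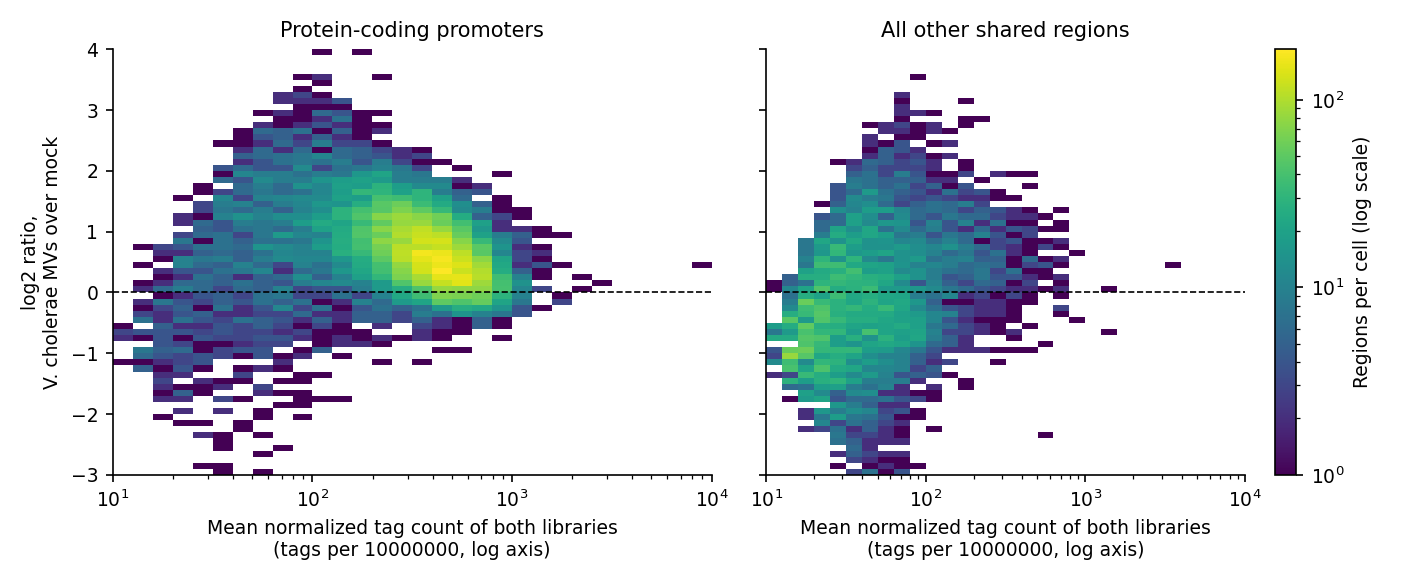
Log2 ratio of normalized tag counts, *V. cholerae* MVs over mock (y axis), by the mean normalized tag count of both libraries (x axis, tags per 10000000, log axis), at shared regions. Colour gives the number of regions per cell on a log scale, and values beyond the axes are drawn in the edge cells. Promoters lie mostly above 0 (median 0.64), and the other regions centre below 0 at low levels.

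The ratio of summed tags at protein-coding promoters was smaller where the mark was strong. In the lowest quartile by mean level the median log2 ratio was 0.92, with medians of 120.7 normalized tags with *V. cholerae* MVs and 57.7 with mock. In the highest quartile it was 0.37, with medians of 708.6 and 537.0. The share of promoters at least 2-fold higher was 46.5% in the lowest quartile and 8.72% in the highest. Per kb this order was absent, with median log2 ratios of 0.21, 0.51, 0.39 and 0.24 from the lowest to the highest quartile. The median log2 width ratio fell from 0.62 to 0.12, and the median GC content from 57.4% to 50.9%. The parts of width and GC content in the order of the tag ratios were not tested.

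Peaks were wider with *V. cholerae* MVs at 78.6% of shared regions, with a median width of 2054 bp with *V. cholerae* MVs and 1554 bp with mock. The median log2 width ratio was 0.27. Per 1000 bp of called peak, the median level was 108 tags with *V. cholerae* MVs and 76.1 with mock, and the median log2 ratio per kb was 0.08. At protein-coding promoters the median log2 ratio per kb was 0.35, and -0.19 when scaled to the tags in peaks, so its sign rests on the scale. In exons, introns and between genes it was -0.59, -0.74 and -0.64, with wider peaks and no more tags with *V. cholerae* MVs. Scaling to the tags in peaks makes the median log2 ratio per kb -0.46 over all shared regions.

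The widening lay on both sides of the start site. It was measured at 8841 regions with 1 peak in each list and protein-coding start sites on 1 strand. The upstream edge with *V. cholerae* MVs lay a median of 173 bp beyond the mock edge, and it was further out at 79.2% of regions. The downstream edge lay a median of 175 bp beyond, and it was further out at 77.9%. The median of the difference, downstream less upstream, was -10 bp. Shifts of more than 500 bp outward were found at 16.0% of upstream and 15.4% of downstream edges, and shifts as large inward at 0.656% and 1.35%. The fragment length that the peak caller estimated was 164 bp with *V. cholerae* MVs and 130 bp with mock. The *V. cholerae* MV library was also deeper, by a ratio of 3.76. The part of fragment length and of depth in the edges and widths was not tested.

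A small share of regions held neighbouring mock peaks within 1 *V. cholerae* MV peak, and the part of library depth in this was not tested. Of the shared regions, 17518 (95.5%) had 1 peak in each list, 721 (3.93%) had 1 *V. cholerae* MV peak over 2 or more mock peaks, and 94 (0.512%) had the reverse. The 721 regions had medians of 385.8 normalized tags with *V. cholerae* MVs and 196.3 with mock, summed over all their peaks, and of 3761 bp and 2403 bp. At the 94 regions the medians were 61.1 and 119.9 normalized tags, and their median GC content was 40.6%. The homeobox cluster *HOXB3* to *HOXB9*, whose genes set position along the body axis, was the most joined (chr17:46645291-46725667). There 1 *V. cholerae* MV peak of 79873 bp with 9816.4 normalized tags covered 6 mock peaks, which summed to 76719 bp and 7283.7 normalized tags, a log2 ratio of 0.43. The keratin genes *KRT8* and *KRT18*, intermediate filament genes of simple epithelia, had 1 *V. cholerae* MV peak with 644.0 normalized tags over 4 mock peaks with 560.1 (log2 ratio 0.20). *CEMIP2*, a cell-surface hyaluronidase, had 922.2 normalized tags with *V. cholerae* MVs and 655.3 with mock, in 1 peak against 5. *RNF43*, a ubiquitin ligase that removes Wnt receptors, had a region of 155.2 and 161.6 normalized tags in 1 peak against 4, at 38.2% GC.

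Not every broad region was wider with *V. cholerae* MVs. *NRIP1*, a nuclear receptor corepressor, had 1851.4 normalized tags over 18000 bp with *V. cholerae* MVs and 2049.7 over 18697 bp with mock (log2 ratio -0.15). *FOXA1*, a pioneer transcription factor of endoderm, had 2592.3 and 2150.8 normalized tags (log2 ratio 0.27). A broad region of 33.9% GC within *VTI1A* had 1214.3 normalized tags with *V. cholerae* MVs and 1945.8 with mock (log2 ratio -0.68). These broad regions thus ranged on both sides of 0.

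For genes, the normalized tags of all peaks within 1000 bp of any annotated start site were summed. Of 20090 protein-coding genes, 13097 had a peak with *V. cholerae* MVs and 12141 with mock, and 12095 had both. The median log2 ratio of these 12095 genes was 0.63 (quartiles 0.29 and 1.05), and 91.1% were higher with *V. cholerae* MVs. At least 2-fold higher were 3348 genes, or 27.7%, and at least 2-fold lower were 33, or 0.273%. Summed over whole joined regions, 3290 of 12159 genes were 2-fold higher (27.1%) and 33 were 2-fold lower (0.271%), and 3253 and 31 of the first calls were among them. A peak with *V. cholerae* MVs only was found for 1002 genes and with mock only for 46. Of the 1002 genes, 944 had no mock peak in the whole region either, with a median of 26.1 normalized tags, and 54 of these had at least 100.

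GC content of the regions of a gene ordered its ratio over the whole range. When the 12095 genes were put into deciles by GC content, groups of equal size from the lowest to the highest, the median log2 ratio was -0.01 in the lowest decile (31.1% to 46.1% GC) and 1.52 in the highest (63.9% to 78.2% GC). Every decile between had a higher median than the one below it. At least 2-fold higher were 6 of 1210 genes in the lowest decile (0.496%) and 1098 of 1210 in the highest (90.7%). Of the 33 genes that were 2-fold lower, 24 were in the lowest decile. The mock level differed more between the deciles than the level with *V. cholerae* MVs. In the lowest decile the medians were 530.3 normalized tags with *V. cholerae* MVs and 513.9 with mock, and in the highest 345.5 and 112.6. Among these marked genes, both levels were thus lower in the highest decile than in the lowest. Width went with GC content as well, with a median log2 width ratio of 0.09 in the lowest and 0.69 in the highest decile. Scaled to the tags in peaks, the medians of the 4 lowest deciles were below 0 and those of the 6 others above 0. Among protein-coding promoters in the highest quartile by level, the quartiles by GC content had median log2 ratios of 0.01, 0.25, 0.47 and 0.86, so the order was also present at strong promoters. With 1 library per treatment, a difference between libraries and one between treatments cannot be told apart in this pattern.

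**Figure D2:**
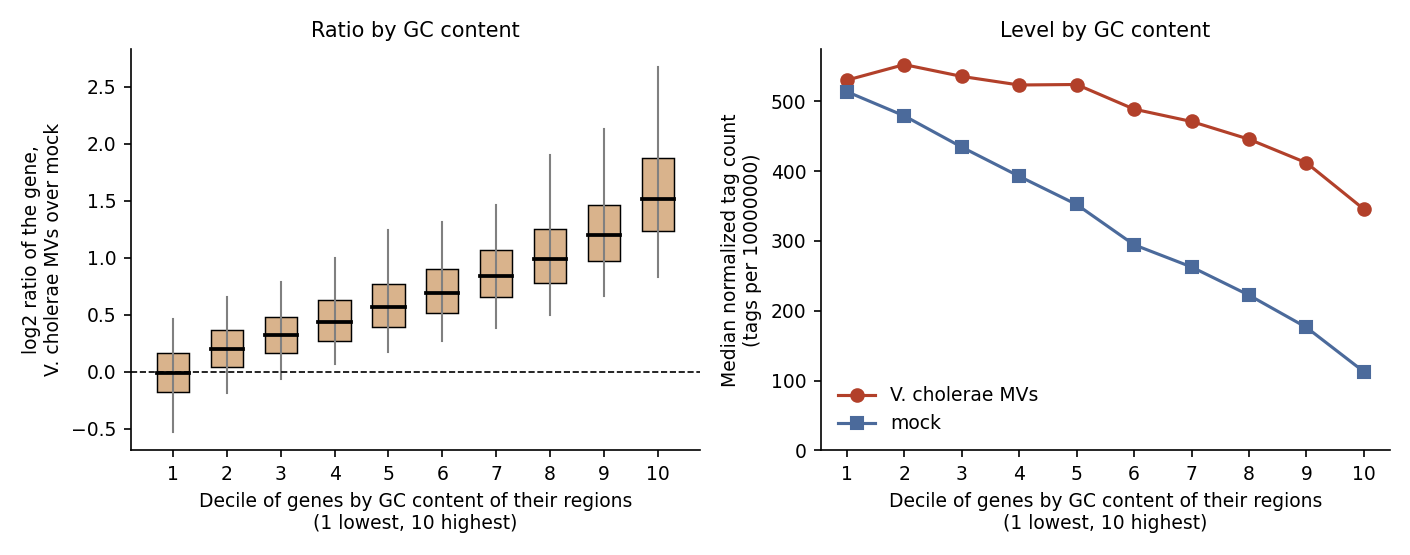
Left, log2 ratio of *V. cholerae* MVs over mock (y axis) of genes by deciles of GC content of their regions (x axis), with the median (line), quartiles (box) and the 5th and 95th percentiles (whiskers). Right, median normalized tag count per decile (tags per 10000000). The median ratio was -0.01 in the lowest and 1.52 in the highest decile, and the median mock level was 513.9 and 112.6 in these deciles.

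The genes with the highest ratios among the more strongly marked genes had peaks that 1 list joined to a strong neighbour and the other did not. *TNFSF13*, which encodes the B cell ligand APRIL, had 826.2 normalized tags with *V. cholerae* MVs in 1 peak of 6220 bp and 40.4 with mock in 1 peak of 797 bp. Its log2 ratio was 4.35 (exact 95% binomial interval 3.60 to 5.23), but the whole region had 826.2 and 389.7, a log2 ratio of 1.08. *DMPK*, the myotonic dystrophy protein kinase, had 820.8 normalized tags with *V. cholerae* MVs and 57.7 with mock, and its log2 ratio of 3.83 became 1.27 over whole regions. The same held for *ZNF34* (4.20 and 1.04), *EHBP1L1* (3.47 and 0.91), *HDAC10* (3.39 and 1.15), *PLEKHG2* (3.37 and 1.13) and *NDUFB10* (3.09 and 0.63), and for an unnamed gene on chromosome 8 (5.56 and 1.48). Of the 6 genes with the most *V. cholerae* MV tags and no mock peak, *RAB34*, *FAM83E*, *TMEM249*, *KCNAB3* and *RNF224* likewise had a mock peak in the whole region, and only *CHCHD7* had no such peak.

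Regions with 1 peak in each list are free of such joining. Among the stronger of them, the highest log2 ratio was 3.59 at the *C1orf159* promoter (chr1:1050052-1052745), with 382.7 normalized tags with *V. cholerae* MVs and 31.8 with mock. *ATOH8*, a basic helix-loop-helix transcription factor, had 384.3 and 49.1 (log2 ratio 2.97, chr2:85980700-85983360). *RIN1*, an effector of Ras that acts on Rab5, had 315.9 and 43.3 (2.87, chr11:66102449-66104715). A promoter of *PFKFB3*, which makes the fructose bisphosphate that drives glycolysis, had 315.1 and 49.1 (2.68, chr10:6242645-6246858). *HSPA12A*, a distant member of the HSP70 family, had 410.4 and 66.4 (2.63, chr10:118500542-118503222). These 5 promoter regions had 64.3% to 70.0% GC. They were picked as the highest ratios, and their mock values rest on 11 to 23 recovered tags. Their peaks also differed in width, with 4213 bp against 754 bp in mock at *PFKFB3*. Per kb, the log2 ratio was 0.20 at *PFKFB3* and 1.43 to 1.49 at the others.

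The lowest ratios were at regions poor in GC. A region in an intron of *MLLT3*, a subunit of a transcription elongation complex, had 203.7 normalized tags with *V. cholerae* MVs and 1033.5 with mock (log2 ratio -2.34, chr9:20601171-20613909, 32.6% GC). Its width was 5464 bp with *V. cholerae* MVs and 12738 bp with mock. A promoter region of *RND3* had 229.0 and 511.0 (-1.16, 39.0% GC), and 1 of *ELF1*, an ETS transcription factor, had 349.7 and 664.0 (-0.93, chr13:41591137-41595061, 33.7% GC). Among genes, *TNRC6B* was lowest of the strongly marked ones, with 392.0 normalized tags with *V. cholerae* MVs and 1001.8 with mock (log2 ratio -1.35, interval -1.55 to -1.15). *GALK2* had 854.6 and 1342.4 (-0.65), and at both genes a mock peak described above had no counterpart with *V. cholerae* MVs. Those mock peaks were 6.4-fold (*TNRC6B*) and 4.7-fold (*GALK2*) over input, where the minimum was 4-fold. Tags there with *V. cholerae* MVs, if any, are missing from the sums. Both ratios may thus be too low, and the interval of *TNRC6B* does not cover this. *CTNND1*, the p120 catenin that holds E-cadherin at the membrane, had 836.1 and 1258.8 (-0.59) and *PSMA3*, a proteasome subunit, 697.8 and 1033.5 (-0.57). *CSTF3*, which takes part in cleavage of mRNA ends, had 593.3 and 877.6 (-0.56), and the zinc transporter *SLC30A6* had 579.5 and 848.8 (-0.55). *DNAJB14*, a co-chaperone of the endoplasmic reticulum, had 518.8 and 840.1 (-0.70) but 1102.9 and 840.1 over the whole region.

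Wnt targets and crypt genes had the highest median of the gene lists examined. Of 19 genes, 17 had a peak in both lists, 10 of these were at least 2-fold higher with *V. cholerae* MVs (9 over whole regions), where 27.7% of all genes were, and the median log2 ratio was 1.25 against 0.63 over all genes. *EPHB3*, a receptor that positions cells along the crypt, had 952.2 normalized tags with *V. cholerae* MVs and 213.6 with mock, a log2 ratio of 2.16 that was 1.41 over the whole region. *SP5*, a transcription factor induced by Wnt signals, had 315.1 and 83.7 (1.91). *RNF43* had 928.3 and 1036.4 (-0.16, and -0.48 over the whole region), and *TCF7L2*, the factor that carries beta-catenin to DNA, had 1467.9 and 1400.1 (0.07). Relative to genes of the same decile by GC content, the median of the list was 0.26 and 12 of 17 genes were above 0.

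Actin genes and targets of the serum response factor followed. Of 17 genes with both peaks, 9 were at least 2-fold higher, where 27.7% of all genes were, and the median log2 ratio was 1.15. *PDLIM7*, a scaffold on actin filaments, had 423.5 normalized tags with *V. cholerae* MVs and 101.0 with mock (log2 ratio 2.07, and 1.74 over the whole region), and *ACTB*, cytoplasmic beta-actin, had 824.6 and 294.4 (1.49). *CCN1*, a matrix protein of the same response, had 284.4 and 233.8 (0.28), and *FHL2*, a cofactor of the serum response factor, had 581.8 and 447.5 (0.38). Within deciles of GC content the median of the list was 0.04.

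For the homeobox genes the count depends on the joined *HOXB* peak. Of 25 genes with both peaks, 16 were at least 2-fold higher, and over whole regions 8 were, with medians of 1.12 and 0.85. Over all genes the shares were 27.7% and 27.1%. The genes of the *HOXB* cluster share 1 *V. cholerae* MV peak and are not separate measurements. *HOXB9* had a log2 ratio of 3.0 by its own mock peak and 0.43 over the cluster. *HOXA13*, of the distal gut, had 113.7 normalized tags with *V. cholerae* MVs and 23.1 with mock (2.30). *HOXD3* had 162.9 and 129.9 (0.33). Relative to genes of the same decile by GC content, the median of the list was 0.37 by the peaks of each gene, and 22 of 25 genes were above 0.

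Signalling lists lay between 0.72 and 0.90 in their medians. These counts are to be read against the 27.7% of all genes that were 2-fold higher, or 27.1% over whole regions. Of 10 receptors, ligands and sheddases of the EGF receptor system with both peaks, 4 were at least 2-fold higher, and 3 over whole regions. *EGFR* itself had 631.8 normalized tags with *V. cholerae* MVs and 242.5 with mock (log2 ratio 1.38), and its partner *ERBB2* had 1456.4 and 612.0 (1.25, and 0.96 over the whole region). The ligand *EREG* had 714.7 and 756.4 (-0.08). Of 15 feedback genes of the MAP kinase pathway, 6 were 2-fold higher (7 of 16 over whole regions), led by the phosphatases *DUSP7* with 641.0 and 233.8 (1.46) and *DUSP1* with 382.7 and 141.5 (1.44). *ERRFI1*, an inhibitor of the EGF receptor, had 874.6 and 909.4 (-0.06), and 0.05 over the whole region. Of 20 genes of the TGF-beta pathway, 7 were 2-fold higher on either count. *PMEPA1*, a target that limits the pathway, had 111.5 and 23.1 (2.27, interval 1.25 to 3.51), and *SKI*, a corepressor of SMAD proteins, had 651.7 and 181.9 (1.84). The receptor *TGFBR2* had 946.1 and 909.3 (0.06). Of 13 genes that respond to cAMP, 5 were 2-fold higher, or 4 over whole regions, among them the clock gene *PER1* with 526.4 and 210.7 (1.32) and the nuclear receptor *NR4A1* with 704.0 and 294.5 (1.26). Within deciles of GC content the medians of these lists were -0.01, 0.11, 0.05 and 0.06, in the order given here.

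Stress and metabolic lists were close to all genes. Their medians were 0.74 for the unfolded protein response, 0.75 for oxidative stress, 0.73 for p53 targets, 0.73 for hypoxia and glycolysis and 0.64 for cholesterol synthesis. *DDIT3*, a factor of the stress response that promotes cell death, had 789.3 normalized tags with *V. cholerae* MVs and 265.6 with mock (log2 ratio 1.57, and 0.88 over the whole region). The stress sensor *ATF6* had 514.1 and 629.4 (-0.29). *MAFF* and *MAFG*, partners of NRF2, had 499.5 and 170.3 (1.55) and 684.0 and 233.8 (1.55). *BBC3*, which encodes the death protein PUMA, had 570.2 and 181.8 (1.65). Of 13 clock genes, 4 were 2-fold higher, where 27.7% of all genes were, with a median of 0.89, and *PER2* had 560.3 and 153.0 (1.87), while *CLOCK* had 694.0 and 580.3 (0.26). After GC deciles, the medians of these 6 lists were between -0.09 and 0.11.

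Heat shock, mitotic and ribosomal protein genes had the lowest medians. The 14 heat shock genes had a median log2 ratio of 0.45, the 18 mitotic genes 0.24 and the 30 ribosomal protein genes 0.16, and scaled to the tags in peaks these became -0.09, -0.31 and -0.38. None of the heat shock or mitotic genes was 2-fold higher, where 27.7% of all genes were. *HSPA8*, the constitutive HSP70, had 887.7 normalized tags with *V. cholerae* MVs and 834.3 with mock (0.09). *BUB1B*, of the spindle checkpoint, had 406.6 and 453.2 (-0.16), and *CENPA*, the centromeric histone, had 842.3 and 467.7 (0.85). *RPL4* had 932.2 and 1180.8 (-0.34, interval -0.50 to -0.18), and *RPL8* had 1379.5 and 594.7 (1.21). The *V. cholerae* MV peak of *RPL8* is the one counted for *ZNF34*, so the 2 genes are not separate measurements, and their whole region had a log2 ratio of 1.04. These lists were also poor in GC, with median GC contents of 50.9%, 48.2% and 50.3%. Within deciles of GC content the medians were -0.01 for heat shock, 0.01 for mitotic and -0.22 for ribosomal protein genes, and 7 of 30 ribosomal protein genes were above 0. No list had a gene that was 2-fold lower.

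Genes that the study followed by realtime PCR were described beside genes of like GC content. Of 11 genes, 5 were at least 2-fold higher, where 27.7% of all genes were, with a median log2 ratio of 0.93, and relative to their decile of GC content the median was 0.09 and 8 of 11 were above 0. *ALDH1A3*, which makes retinoic acid, had 122.2 normalized tags with *V. cholerae* MVs and 20.2 with mock. Its log2 ratio was 2.60 (interval 1.52 to 3.93), and 1.08 relative to its decile. *SKIL*, a repressor of SMAD proteins, had 222.1 and 63.5 (1.81, and 0.29 relative to its decile). The kinase gene *CDK6* had 1177.4 and 626.5 (0.91 and 0.22), and *CCND1*, its cyclin partner, had 1374.9 and 661.1 (1.06 and -0.14). *JUN*, a subunit of AP-1, was at 0.03 relative to its decile, *LTB*, a lymphotoxin, at 0.04 and *MAP3K14*, the kinase of noncanonical NF-kB signalling, at 0.37. *VDR*, the vitamin D receptor, had 647.9 and 378.2 (0.78 and 0.09, with 0.55 over the whole region). *CDKN1B*, an inhibitor of cyclin-dependent kinases, had 2239.5 and 1738.0 (0.37 and 0.17), but a log2 ratio of 0.09 over the whole region (interval -0.02 to 0.21). *KRT80*, a keratin, had 113.0 and 77.9 (0.54, interval -0.06 to 1.18), and *TJP1*, a scaffold of tight junctions, had 565.6 and 508.1 (0.15, interval -0.08 to 0.40). The last 2 were the lowest of the 11 against genes of like GC content, at -0.66 and -0.41.

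Of the genes that the study named for opposite responses to the 2 kinds of MVs, *SOCS2*, a brake on growth hormone signalling, had 1310.3 normalized tags with *V. cholerae* MVs and 716.0 with mock (log2 ratio 0.87, interval 0.68 to 1.07). *RND3*, which lowers actomyosin tension, had 1070.5 and 1140.4 (-0.09, interval -0.25 to 0.07). Relative to genes of the same decile by GC content, *SOCS2* was at 0.03 and *RND3* at -0.08. With *E. coli* MVs, *SOCS2* had 1230.0 normalized tags and *RND3* had 1244.2.

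Set against *E. coli* MVs, which need no mock value, differences were small. At 12764 genes with a peak in both MV lists the median log2 ratio of *V. cholerae* MVs over *E. coli* MVs was 0.12 (quartiles -0.04 and 0.29). At least 2-fold higher with *V. cholerae* MVs were 195 genes, or 1.53%, and at least 2-fold lower were 44, or 0.345%. The quartiles by GC content had medians of -0.10, 0.05, 0.20 and 0.36, in the same order as against mock over a narrower range. For the Wnt and crypt genes the median was 0.24 and for the ribosomal protein genes -0.08.

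Open chromatin was read from the FAIRE peak lists of the same treatments, where FAIRE isolates DNA free of nucleosomes. A FAIRE peak of *V. cholerae* MV-treated cells overlapped 63.5% of shared H3K4me3 regions, and a FAIRE peak of mock-treated cells overlapped 30.4%. At protein-coding promoters among them the shares were 77.3% and 38.1%. For H3K4me3 regions with *V. cholerae* MVs only they were 35.3% and 15.5%, and for those with mock only 15.2% and 5.98%. The *V. cholerae* MV list was the higher in each class of regions, those without an H3K4me3 peak in that treatment included. It held 79591 FAIRE peaks over 55.7 Mb, against 66436 over 39.2 Mb with mock. In peaks lay 13.9% of the 12077180 FAIRE tags with *V. cholerae* MVs and 7.12% of the 14474665 with mock. The estimated fragment lengths of these libraries were 260 bp and 336 bp. The part of these differences in the shares of overlapped regions was not tested.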

How the data were processed

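H3K4me3 ChIP sequencing was carried out in HCT8 cells with 1 library per treatment, and samples were assigned to treatments by their labels. The authors aligned reads to hg19 and called peaks. Tools named in the submitters' notes were HOMER 4.7.2, Bowtie 1.1.2 and SAMtools 1.3.1. The study's methods name Bowtie 2, MACS and HOMER. Per the file headers, HOMER was run in histone mode against input and kept peaks past 4-fold over input with p up to 0.0001 (Poisson), at least 1000 bp apart. The deposited normalized tag count is a signal scaled by the authors to 10000000 tags per library, and the deposited lists also give the authors' tag count of the region and fold ratio over input. The ratio was used to describe single peaks and for a stricter filter, and the authors' p-values over input or local background were not used. Whole tags were recovered from the normalized values, with at most 0.0651 tags from a whole number.

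Peaks sharing at least 1 bp were joined into regions. Regions and genes were placed with GENCODE 44 on GRCh37, the build of hg19, within 1000 bp of any transcript start, and counts without strand cannot separate neighbouring genes. GC content was read from the joined region. Named genes were those the study names, at most the 2 highest and the 2 lowest of each list, the 8 highest and the 8 lowest of genes in the upper 50% by mean level, and the 6 and the 4 strongest genes with a peak in 1 list. Genes such as *ASCL2*, the single regions named and the *C1orf159* and *RND3* sequences were chosen after their values were seen. The members and lists were chosen with earlier results of these data known. Intervals are exact binomial (SciPy 1.17.1). Scripts ran in Python 3.11.15 with pandas 2.3.3, numpy 2.4.6 and pysam 0.24.0 and were tested on simulated data. Alternatives were the scale, a stricter fold over input, a floor on tags, the overlap, the window, tags per kb, and, added after seeing the data, joined regions, a common threshold and deciles of GC content. The input libraries and the FAIRE list of *E. coli* MVs were not analysed here. Some of the genes that the rule names are not reported here.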

Additional observations from a re-analysis of the deposited data

How the results depend on the processing

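No paired analysis was possible because only 1 library per treatment was analysed, and no library could be left out for the same reason. With tags in peaks as the scale, the median log2 ratio of shared regions was -0.10 and that per kb -0.46, both below 0 where the values by all tags were above 0. The median of genes was 0.092 on that scale, with 1083 genes at least 2-fold higher and 125 at least 2-fold lower. With tags per kb, the median of genes was 0.33, with 911 genes at least 2-fold higher and 51 at least 2-fold lower. With peaks at least 8-fold over input, 6964 regions had a peak with *V. cholerae* MVs only, and the shared medians were 0.57 for the ratio, 0.26 for the width and 0.26 per kb. With peaks at or above the weakest mock peak, 7020 regions had a peak with *V. cholerae* MVs only, and the shared medians were 0.48, 0.29 and 0.12. At the header threshold of mock, added after seeing the data, the count was 3996. With at least 50% of the shorter peak shared, the median log2 ratio was 0.46 and that per kb 0.10, and with 1 peak of each list the median log2 width ratio was 0.26. The cause of these shifts was not tested. The other 30 alternative values stayed within the 95% interval of the median over regions or genes, or within 1.5 times the count, and those with a sign kept it. Windows of 500 bp and 2000 bp and joined regions were among them. The depth of 3463875 tags in mock, where the weakest peak had 4 tags, limits weak regions most, and 1 library per treatment limits every comparison.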

Other observations

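The median log2 ratio of *V. cholerae* MVs over mock at shared regions differed between chromosomes. It was 0.79 on chromosome 19 (978 regions), 0.74 on chromosome 16 (756 regions) and 0.73 on chromosome 22 (431 regions). It was 0.16 on chromosome 13 (442 regions) and 0.19 on chromosome 4 (740 regions). Chromosome X had 0.55 over 430 regions. Scaled to the tags in peaks, each of these values is lower by 0.54, which puts chromosomes 13 and 4 below 0. The median GC content of the shared regions was 57.7% on chromosome 19, 56.0% on 16 and 22, 52.1% on X, 46.9% on 13 and 46.4% on 4. Protein-coding promoters made up 81.8%, 69.8%, 65.9%, 77.9%, 44.6% and 56.2% of them on chromosomes 19, 16, 22, X, 13 and 4. The part of GC content and promoters in the differences between chromosomes was not tested.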
